A study of Mus musculus with 8 samples.

Results

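The serpins are a family of proteins that share one fold, and most of them trap a serine protease in a one-off reaction that destroys both partners. An exposed loop of the serpin is offered as bait, the protease cuts it, and the folding back of the loop carries the bound enzyme across the molecule and distorts it. Clades are named by letter: A holds the secreted relatives of antitrypsin and antichymotrypsin, B the intracellular serpins that guard cells against their own or a neighbour's proteases, and most of the other clades described here hold secreted regulators of clotting, complement, fibrinolysis or vessel growth. In the loaded heart they are known for setting how far leukocyte proteases, thrombin and plasmin act on the matrix between muscle cells.

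All 53 genes with a platform symbol beginning in Serpin were taken, from 54 probe sets annotated with exactly 1 symbol, out of 22180 genes on the array. Serpinh1, the collagen chaperone of the endoplasmic reticulum, was not among them. Another 2 probe sets, which carried a second symbol beside a Serpin symbol, were not used. For Serpinb9b, the gene with more than 1 probe set, the one of higher mean signal was kept. A gene was tested when its mean over the 8 arrays reached 3.80 (log2 signal), the 40th percentile of all probe sets, and 16 Serpin genes passed. The 37 others lay below that line, 15 of 20 in clade A and 18 of 25 in clade B. Nearest to it were Serpina5 at 3.75 below and Serpina4-ps1 at 3.94 above.

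Whole hearts of male C57Bl6N mice were collected 1 week after transverse aortic constriction (TAC), an operation in which the aortic arch is tied narrower so that the left ventricle pumps against a higher pressure. One group of 4 hearts had a CITED4 knockout (labelled C4KO_TAC) and the other group of 4 was labelled as floxed control (F/FCtr_TAC). CITED4 works in the nucleus, where it links transcription factors to the acetyltransferases CBP and p300. All 8 hearts were operated on, so no unloaded heart was compared, and neither the Cre driver, the Cre status of the controls nor the age of the mice is given in the sources used here. RNA was hybridised to 1 Affymetrix array per heart and values are log2 signals.

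Cited4 was at 5.89, 5.76, 6.05 and 6.22 in control replicates 1 to 4 and at 5.26, 5.15, 4.83 and 5.02 in knockout replicates 1 to 4, so each library matched its label. Array medians lay between 4.29 and 4.33. All 6 cardiomyocyte markers were measured, with a mean level from 11.49 to 11.58 in controls and from 11.27 to 11.54 in knockouts. The difference was below 0 for 5 of 6, among them Myh6 (-0.35 ± 0.13, SE) and Myl2 (-0.36 ± 0.13). The groups did not overlap for 1, Ryr2, beside 5.23% of all genes tested. Knockout replicates 1 and 4 had the lowest score of these markers, -0.20 in each. Knockout replicate 2 stood apart in atrial markers, where the mean level of 4 genes was 9.38 against 6.28 to 7.08 in controls. Of these 4 genes, 2 did not overlap between the groups, Myl4 and Nppa, both higher in the knockout. Resting fibroblast markers were higher in the knockout in 2 and lower in 4 of 6. Activated fibroblast markers varied between hearts, and 11 of 11 were higher on average in the knockout, with adjusted p-values from 0.421 to 0.473 (limma). An unadjusted p under 0.05 (limma) was reached by 10 of 11, beside 5.64% of all genes tested in the higher direction. The groups did not overlap for 2 of 11, Ccn2 and Meox1, beside 5.23% of all genes tested. The mean level of the 11 genes ran from 7.72 to 8.87 in controls and from 8.29 to 9.69 in knockouts. The 3 hearts with the highest fibroblast score (the mean deviation of those 11 genes from their means over the arrays) were knockout replicate 1 at 1.11, knockout replicate 4 at 0.97 and control replicate 1 at 0.29. In whole hearts, fewer cells of a type and less RNA per cell cannot be told apart.

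No Serpin gene passed the test of genotype. With limma and Benjamini-Hochberg adjustment over 15086 genes, 0 of the 16 tested members were called at an adjusted p of 0.05, where 0% of all genes tested were called. An unadjusted p under 0.05 was reached by 3 members, Serpina3n, Serpinf1 and Serpind1, all higher in the knockout, beside 11.2% of all genes tested in either direction and 5.64% in the higher direction. No tested member separated the groups (0 of 16, beside 5.23% of all genes tested). The sign was positive for 11 members and negative for 5, beside 51.2% positive and 48.8% negative over all genes tested. The median difference of the 16 was 0.11 (log2), and that of all genes tested was 0.00. Differences ran from -0.19 for Serpini1 to 1.40 for Serpinb1a.

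**Figure D1:**
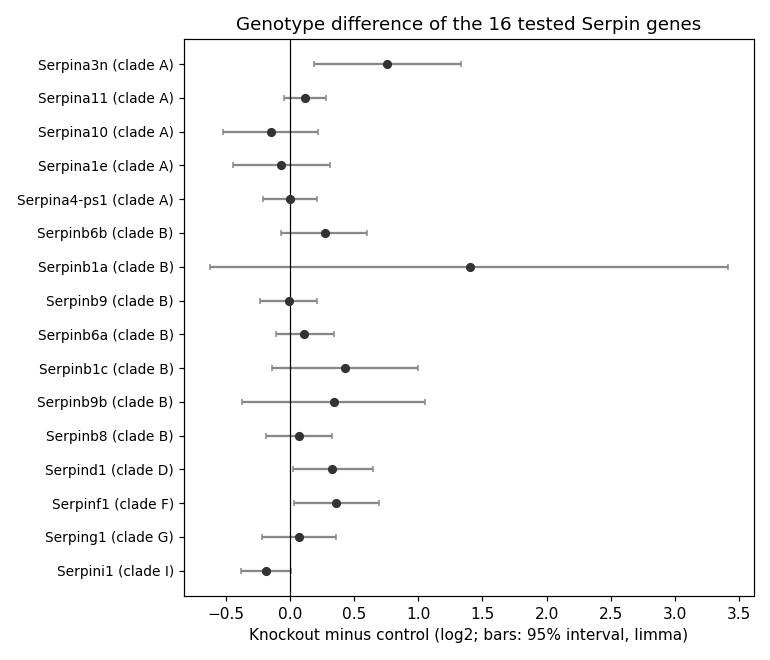
Knockout minus control difference (x axis, log2) of the 16 tested Serpin genes, with limma's 95% intervals as bars. Serpina3n, Serpinf1 and Serpind1 have intervals above 0 before adjustment, and the interval of Serpinb1a runs from -0.62 to 3.41.

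Among the secreted antitrypsin-like serpins of clade A, Serpina3n had the widest genotype difference. It is an acute-phase serpin related to antichymotrypsin that inhibits leukocyte proteases. Its signal was 8.57, 8.32, 8.58 and 9.08 in control replicates 1 to 4 and 9.88, 8.66, 9.26 and 9.77 in knockout replicates 1 to 4. Knockout replicates 1, 3 and 4 lay above every control, whereas knockout replicate 2 lay below control replicate 4, so the groups overlapped. The group means were 8.64 ± 0.32 and 9.39 ± 0.56 (SD, n = 4), a difference of 0.76 ± 0.26 (SE, 95% interval 0.19 to 1.33), or 1.69-fold. Limma gave an adjusted p of 0.421, and the exact two-sided permutation test gave p = 0.0571, where the smallest p that 4 against 4 hearts allow is 0.0286. The difference was 0.33 without knockout replicates 1 and 4, the highest knockouts, whose removal had to lower it. That pair of hearts also had the highest activated fibroblast scores and the lowest cardiomyocyte scores, and the part of cell content in the difference was not tested.

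The antitrypsin genes, which encode the main blood inhibitor of neutrophil elastase and are duplicated in the mouse, gave low signals. Of the 6 members named Serpina1a to Serpina1f, Serpina1e alone passed the filter. Its values were 3.69, 3.81, 4.46 and 3.95 in controls and 4.15, 3.78, 3.67 and 4.04 in knockouts, with full overlap and a difference of -0.07 ± 0.17 (SE). Serpina1a to Serpina1e are near copies of one another, so the assignment of their signal to one copy is uncertain. Serpina10, which encodes the protein Z-dependent inhibitor of clotting, ran from 3.84 to 4.52 in controls and from 3.64 to 4.27 in knockouts. Its difference of -0.15 ± 0.17 was -0.02 without knockout replicate 2, -0.03 without control replicate 3, -0.26 without control replicate 1 and -0.23 without knockout replicate 1. Serpina11 differed by 0.12 ± 0.07 and the pseudogene Serpina4-ps1 by -0.00 ± 0.09. Clade A members below the filter included the hormone carriers Serpina6 (corticosteroid-binding globulin) and Serpina7 (thyroxine-binding globulin), Serpina5 (protein C inhibitor) and Serpina12 (vaspin). Hepatocyte markers, which go with the liver source of many of these proteins, had a mean level of 3.97 to 4.19 in controls and 4.07 to 4.21 in knockouts over 6 genes.

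The intracellular serpins of clade B held the family's most variable gene. Serpinb1a encodes an inhibitor of the neutrophil proteases elastase, cathepsin G and proteinase 3. It stood at 8.03, 4.93, 4.82 and 5.37 in control replicates 1 to 4 and at 9.36, 6.38, 5.24 and 7.75 in knockout replicates 1 to 4. Control replicate 1 and knockout replicates 1 and 4 were high, knockout replicate 2 was between, and the 4 remaining hearts lay from 4.82 to 5.37, 3 of them controls. The highest heart exceeded the lowest 23.3-fold. Its within-group SD, pooled over both groups, was 1.65 against a median of 0.15 over all 15086 genes tested, and it ranked 4 among them. Ahead of it were Sln and Myl7, which are atrial genes, and the stress gene Sprr1a.

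The genotype difference of Serpinb1a was 1.40 ± 0.90 (SE, 95% interval -0.62 to 3.41), with means of 5.79 ± 1.52 in controls and 7.18 ± 1.78 in knockouts (SD, n = 4). Limma gave an adjusted p of 0.563 and the exact permutation test p = 0.257, so the groups could not be set apart at this spread. The value depended on single hearts. It was 0.67 without knockout replicate 1, 2.14 without control replicate 1 and 0.02 without knockout replicates 1 and 4 together. That pair held the highest knockout values, so its removal had to lower the difference. Control replicate 1, at 8.03, was kept in that fit.

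Of the neutrophil markers beside Serpinb1a, 6 of 6 were measured and 1, Csf3r, passed the filter on low signal. Their mean level ran from 3.33 to 3.56 in controls and from 3.52 to 3.60 in knockouts, and S100a8 ran from 2.38 to 2.77 over all 8 hearts. Csf3r was at 4.56, 4.84, 4.71 and 4.93 in control replicates 1 to 4 and at 5.14, 5.02, 4.90 and 5.11 in knockout replicates 1 to 4, a difference of 0.28 ± 0.10 (SE). Of the 4 hearts highest in Serpinb1a, knockout replicates 1, 2 and 4 were also the highest in Csf3r, and control replicate 1 was the lowest. Sprr1a was 9.35, 5.13, 3.65 and 6.09 in controls and 11.43, 8.93, 7.13 and 10.93 in knockouts. The 4 hearts highest in Sprr1a, those highest in the activated fibroblast score and those highest in Serpinb1a were the same hearts, knockout replicates 1, 2 and 4 and control replicate 1. The part of neutrophil, stress or fibroblast genes in the Serpinb1a signal was not tested.

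**Figure D2:**
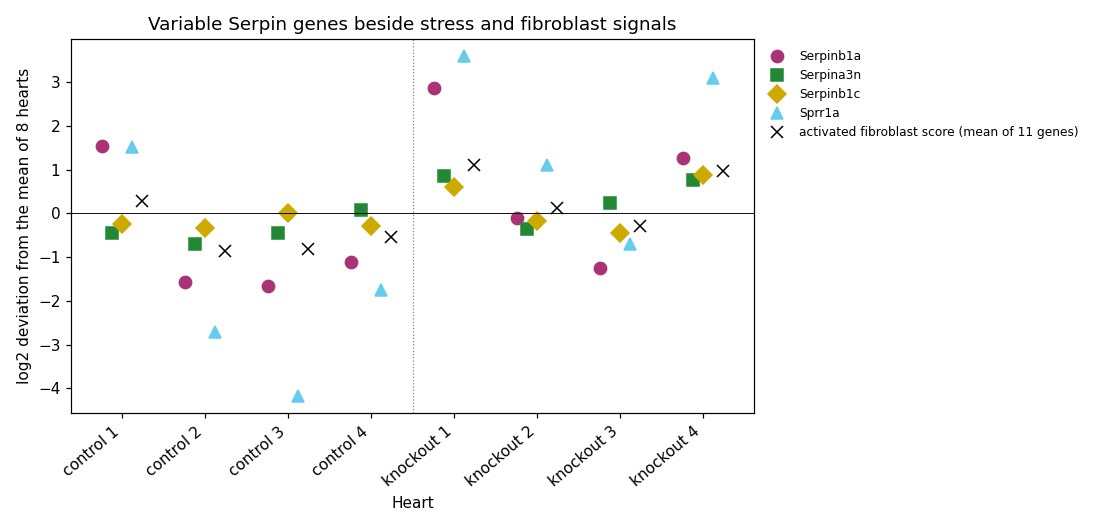
Deviation of each heart (x axis) from the mean of all 8 hearts (y axis, log2) for Serpinb1a, Serpina3n, Serpinb1c, Sprr1a and the activated fibroblast score. Points are single arrays, and control replicate 1 (1.55) and knockout replicates 1 (2.87) and 4 (1.27) lie above the mean in Serpinb1a.

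Serpinb1c, a neighbouring copy of Serpinb1a, did not share all of that pattern. Its signal was 5.18, 5.09, 5.44 and 5.13 in controls and 6.02, 5.25, 4.98 and 6.30 in knockouts. Knockout replicates 1 and 4 were again high, but control replicate 1 lay among the other controls. The difference was 0.43 ± 0.26 (SE), and it was 0.21 without knockout replicate 4 and 0.65 without knockout replicate 3. It was -0.09 without knockout replicates 1 and 4, the highest knockouts, whose removal had to lower it. The third copy, Serpinb1b, was below the filter, from 2.97 to 3.38 in controls and from 2.55 to 3.06 in knockouts. Whether probes of one copy also bind another was not tested.

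Serpinb9 inhibits granzyme B and so guards lymphocytes and their neighbours against the protease that killer cells release. It was at 6.62, 6.36, 6.49 and 6.25 in controls and 6.42, 6.52, 6.27 and 6.47 in knockouts. The control range enclosed every knockout value, and the difference was -0.01 ± 0.10 (SE, 95% interval -0.23 to 0.21). Its paralog Serpinb9b was high in 1 heart, knockout replicate 1 at 6.42, with the 7 others from 4.65 to 5.32. Its difference of 0.34 ± 0.32 was -0.02 without that heart. The second Serpinb9b probe set lay below the filter, with a mean of 3.11, and differed by -0.04.

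Serpinb6b was at 7.72, 7.27, 7.49 and 7.83 in controls and 8.03, 7.85, 7.49 and 7.99 in knockouts. Knockout replicates 1, 2 and 4 lay above every control and knockout replicate 3 did not, with a difference of 0.27 ± 0.15 (SE) and an adjusted p of 0.512 (limma). It was 0.16 without control replicate 2. Serpinb6a, the cathepsin G inhibitor, was at 5.80, 5.71, 5.82 and 5.60 in controls and 6.12, 5.76, 5.72 and 5.79 in knockouts. Knockout replicate 1 alone exceeded the controls, and the difference was 0.11 ± 0.10, or 0.02 without that heart. Serpinb8, an inhibitor of furin, differed by 0.07 ± 0.12. T and NK cell markers, the cells that release granzymes, had a mean level of 4.03 to 4.21 in controls and 4.14 to 4.22 in knockouts over 6 genes.

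Clade B genes lie in clusters. Of the 23 clade B members with a promoter entry in RefSeq, 14 lie on chromosome 13 and 9 on chromosome 1, and the 2 without an entry, the tested Serpinb1a among them, are not counted here. On chromosome 13, 5 of 14 passed the filter (Serpinb6a, Serpinb6b, Serpinb9, Serpinb9b and Serpinb1c). On chromosome 1, 1 of 9 passed, Serpinb8, and the difference between these shares was not tested. The chromosome 1 cluster holds the serpins of squamous epithelia, among them Serpinb5 (maspin), Serpinb12 and Serpinb13, and Serpinb2, a plasminogen activator inhibitor of macrophages. The 4 measured squamous markers had mean levels from 4.36 to 4.77 over all hearts.

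Secreted regulators in the smaller clades gave the other differences at an unadjusted p under 0.05. Serpinf1 encodes PEDF, a serpin that inhibits no protease and restrains vessel growth. It was at 6.76, 6.21, 6.31 and 6.55 in controls and 7.10, 6.74, 6.53 and 6.90 in knockouts. Knockout replicates 1 and 4 lay above every control, and knockout replicates 2 and 3 within the control range. Means were 6.46 ± 0.24 and 6.82 ± 0.24 (SD, n = 4), a difference of 0.36 ± 0.15 (SE, 95% interval 0.03 to 0.69), or 1.28-fold. Limma gave an adjusted p of 0.426 and the exact permutation test p = 0.143. The difference was 0.18 without knockout replicates 1 and 4, the highest knockouts, whose removal had to lower it. Serpinf2, which encodes the main inhibitor of plasmin, was below the filter, from 3.02 to 3.38 over all hearts.

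Serpind1 encodes heparin cofactor II, an inhibitor of thrombin at vessel walls. Its values were 4.52, 4.57, 4.43 and 4.25 in controls and 5.07, 4.61, 4.44 and 4.98 in knockouts. The knockout values lay above every control in replicates 1, 2 and 4, although replicate 2 was close to the highest control. The difference was 0.33 ± 0.14 (SE, 95% interval 0.02 to 0.65), or 1.26-fold, with an adjusted p of 0.438 (limma) and an exact permutation p of 0.114. It was 0.08 without knockout replicates 1 and 4, again the highest knockouts. Serpinc1, the gene of antithrombin, was below the filter at 2.48 to 3.19.

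Serping1 encodes the C1 inhibitor, which blocks the first proteases of complement and the contact system. It was at 9.77, 9.36, 9.34 and 9.79 in controls and 9.71, 9.80, 9.44 and 9.59 in knockouts. The groups overlapped over nearly their full range, with a difference of 0.07 ± 0.13 (SE, 95% interval -0.22 to 0.36). Serpini1, which encodes neuroserpin, an inhibitor of tissue plasminogen activator, had the lowest difference of the 16 tested members. It was at 5.32, 5.14, 5.38 and 5.45 in controls and 5.12, 5.25, 5.08 and 5.10 in knockouts. Knockout replicates 1, 3 and 4 lay below every control and knockout replicate 2 within the control range. The difference was -0.19 ± 0.09 (SE, 95% interval -0.38 to 0.01), with an adjusted p of 0.455 (limma) and an exact permutation p of 0.0571. It was -0.16 without knockout replicates 1 and 4. Of 3 measured neuron and glia markers, Tubb3 passed the filter, at 3.78 to 4.69 in controls and 4.46 to 6.55 in knockouts (difference 0.85 ± 0.43, SE). Snap25, below the filter, ran from 2.95 to 3.20 in controls and from 3.29 to 3.46 in knockouts, and Elavl4 from 2.87 to 3.20 over all hearts. Knockout replicate 1 held the Tubb3 value of 6.55, and the other knockouts lay from 4.46 to 4.83. Tubb3 and Snap25 had the opposite sign to Serpini1, and the part of neuron content in the Serpini1 difference was not tested.

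**Figure D3:**
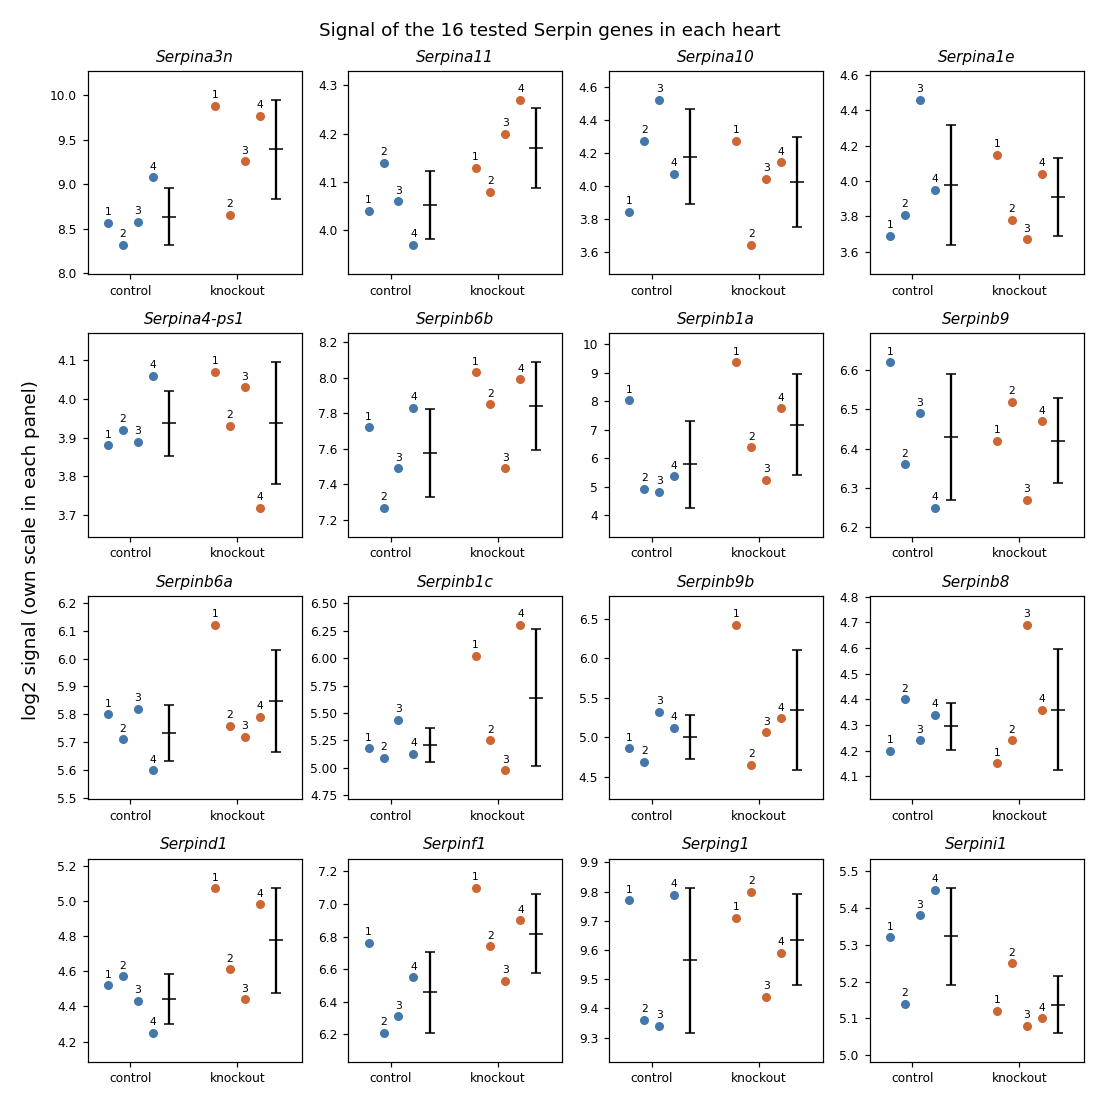
Log2 signal (y axis, own scale in each panel) of the 16 tested Serpin genes in the 4 control and 4 knockout hearts, with the replicate number above each point and the mean ± SD as bars. The groups overlap in every panel, and the Serpinb1a values run from 4.82 to 9.36.

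One heart carried many of the family's highest values. Knockout replicate 1 held the highest signal of the 8 hearts for 8 of the 16 tested members, where it did so for 18.5% of all genes tested. It held the lowest signal for 1 of the 16 and for 18.3% of all genes tested. The other hearts held the highest signal for 0 to 2 members each. This count was chosen after the values were seen, and it includes the related genes Serpinb6a and Serpinb6b.

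The 37 members below the filter ran from 1.45 to 4.14, and none of them varied by more than 1.17 over the 8 hearts. Their differences lay between -0.35 and 0.45, with 17 above 0 and 20 below. In a fit with no filter, 3 of these 37 had an unadjusted p under 0.05, beside 2002 of all 22180 genes. They were Serpina3i at 0.45 ± 0.19 (SE), Serpinb1b at -0.35 ± 0.13 and Serpinb3c at -0.26 ± 0.10, with adjusted p-values from 0.529 to 0.534 (limma). Serpinb3c, at 1.81 to 2.03 in controls and 1.45 to 1.81 in knockouts, was the one member of the 53 whose groups did not overlap, and its nearest control and knockout values were equal to 2 decimals.

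**Figure D4:**
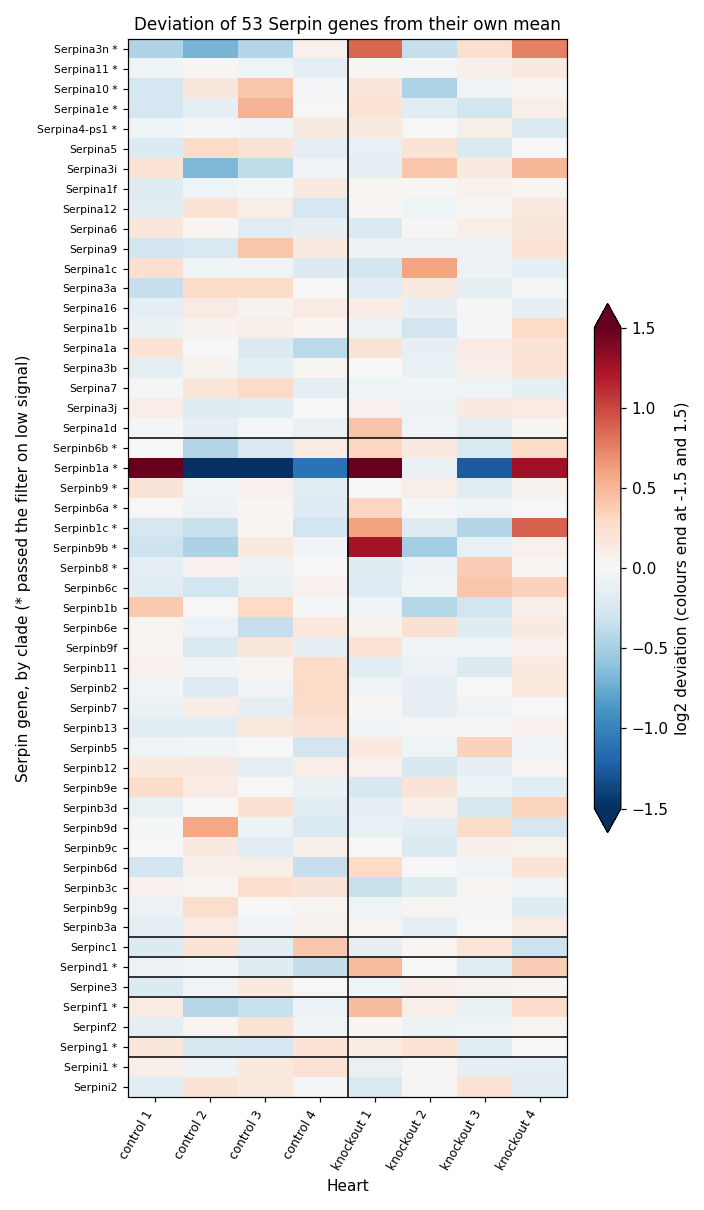
Deviation of each of the 53 Serpin genes from its own mean (colour, log2) in the 4 control and 4 knockout hearts (columns), with lines between clades and between groups and an asterisk on the 16 tested genes. Serpinb1a has the strongest colours, and genes below the filter stay pale in most hearts.

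The regions before the start sites of the 3 members at an unadjusted p under 0.05 (limma) are shown. None of these members passed adjustment, and control of them by CITED4 was not tested. RefSeq (GRCm38.p6) gave promoter windows for 46 of the 53 members, each with 250 bases before and 50 after the annotated start. Serpina3n lies at chr12:104406458-104406757 (+ strand), Serpinf1 at chr11:75422574-75422873 (- strand) and Serpind1 at chr16:17331121-17331420 (+ strand). Both strands were searched for TATAAA, the STAT motif TTCNNNGAA, the AP-1 motif TGANTCA, the TFAP2 motif GCCNNNGGC, the CRE motif TGACGTCA and the hypoxia response core ACGTG, and capitals mark matches, each of them ACGTG.
Serpina3n: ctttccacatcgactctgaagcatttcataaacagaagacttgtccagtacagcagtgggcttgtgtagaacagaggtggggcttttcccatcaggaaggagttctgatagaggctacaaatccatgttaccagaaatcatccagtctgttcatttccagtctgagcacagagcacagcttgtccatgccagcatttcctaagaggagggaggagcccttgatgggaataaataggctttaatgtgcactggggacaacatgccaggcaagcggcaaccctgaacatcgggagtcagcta
Serpinf1: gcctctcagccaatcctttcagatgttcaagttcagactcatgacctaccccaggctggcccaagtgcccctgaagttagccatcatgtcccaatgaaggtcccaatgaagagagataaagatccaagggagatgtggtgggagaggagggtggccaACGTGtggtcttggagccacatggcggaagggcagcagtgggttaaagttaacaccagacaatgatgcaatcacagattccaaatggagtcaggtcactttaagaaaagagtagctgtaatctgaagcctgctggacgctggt
Serpind1: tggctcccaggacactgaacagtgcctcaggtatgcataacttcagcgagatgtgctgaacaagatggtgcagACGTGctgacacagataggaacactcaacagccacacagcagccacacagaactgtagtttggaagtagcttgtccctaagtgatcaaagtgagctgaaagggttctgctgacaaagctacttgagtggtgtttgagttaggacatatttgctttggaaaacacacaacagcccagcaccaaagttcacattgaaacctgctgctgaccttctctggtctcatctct
None of the 6 motifs occurred in the Serpina3n window. The hypoxia core was in the windows of 4 of 46 members (Serpinf1, Serpind1, Serpina3b and Serpinb5), beside 19.6% of all 32851 promoter windows. The TFAP2 motif was in 4 of 46 (16.6% of all windows), the AP-1 motif in 10 of 46 (7.81%), TATAAA in 12 of 46 (13.6%), the STAT motif in 6 of 46 (8.30%) and the CRE motif in 0 of 46 (1.79%). The AP-1 matches included the 4 copies Serpina1a to Serpina1d. A match is a description of the letters and not a binding site.

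The proteases, cofactors and receptors that serpins act on or with were taken as a list of 59 genes, of which 56 were measured and 35 tested. None passed in limma (0 at an adjusted p of 0.05). The difference was above 0 for 24 and below 0 for 11, with a median of 0.07. At an unadjusted p under 0.05 there were 7 higher and 1 lower, beside 5.64% and 5.61% of all genes tested, and the groups did not overlap for 1 higher and 1 lower gene, beside 2.33% and 2.90% of all genes tested. This list was chosen with earlier results of these data known.

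Annexin A2 and S100a10 form the cell-surface receptor on which plasminogen is activated. Anxa2 was at 8.02, 7.59, 7.86 and 7.88 in controls and 8.46, 8.22, 8.13 and 8.27 in knockouts, every knockout above every control, with a difference of 0.43 ± 0.11 (SE) and an adjusted p of 0.421 (limma). S100a10 differed by 0.35 ± 0.10 and overlapped between the groups. The plasminogen activators themselves differed little, Plat by 0.02 ± 0.11 (95% interval -0.21 to 0.26) and Plau by 0.05 ± 0.07. Plg, the gene of plasminogen, differed by -0.10 ± 0.13.

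Tfpi, an inhibitor of the start of clotting that is no serpin, was at 8.31, 8.29, 8.24 and 8.24 in controls and 7.43, 8.06, 7.99 and 7.94 in knockouts. Every knockout lay below every control, with a difference of -0.41 ± 0.13 (SE), an adjusted p of 0.421 (limma) and the lowest value in knockout replicate 1. F2r, the main thrombin receptor, differed by 0.45 ± 0.14, and F2, the gene of prothrombin, was below the filter at 3.08 to 3.51. Of the complement proteases held by the C1 inhibitor, C1ra differed by 0.40 ± 0.12 and Masp1 by 0.52 ± 0.23. Ctss, a lysosomal protease of macrophages, differed by 0.53 ± 0.20, and Lrp1, the receptor that clears serpin-protease complexes, by 0.24 ± 0.11. Macrophage markers were higher in 5 of 6 genes with a median of 0.12, and their part in the Ctss difference was not tested.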

How the data were processed

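Biotin-labelled total RNA of whole frozen hearts was hybridised to Affymetrix arrays, per the labels' protocols. For each of the 8 arrays the authors deposited 41345 probe set signals on a log2 scale. The submitters' processing notes name RMA and limma, with no version. RMA includes quantile normalization, which hides any shift common to all genes. Neither a genome build nor a batch of arrays is stated in the labels, so no batch was tested.

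Groups came from the genotype in the labels (4 and 4). Symbols came from the platform annotation (1 symbol for 23521 probe sets), updated through RefSeq by Entrez identifier, which left the Serpin symbols as they were. Each gene kept its probe set with the highest mean, and the 15086 genes of 22180 with a mean of at least 3.80 (log2) were tested as knockout minus control with limma 3.58.1 in R 4.3.3 (lmFit and eBayes), which was also tested on simulated data. Benjamini-Hochberg adjustment ran over all of them, and the threshold was 0.05. Each difference carries limma's SE. The exact test used all 70 assignments of hearts, two-sided.

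Described one by one were the members at an unadjusted p under 0.05 or without overlap, a panel of well-known members, and 12 partner genes (8 at an unadjusted p under 0.05, plus Plat, Plau, Plg and F2). Serpinb1c, Serpinb6b and Serpinb9b were added after their values were seen. The members, the lists and the removal of knockout replicates 1 and 4 were chosen with earlier results of these data known. Nothing in the labels ties hearts to litters or array runs, so a p-value reflects the spread between these 8 samples, whose number limits the precision. Alternatives changed the filter, normalization, probe set choice, variance model, array weights, replicate block and the arrays kept.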

Additional observations from a re-analysis of the deposited data

How the results depend on the processing

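No Serpin gene and no other gene passed an adjusted p of 0.05 in limma under any of the 17 alternatives (0 in each). Of 266 refits of the 16 members, 250 kept the sign and 16 turned it, and 9 members kept it throughout, among them Serpina3n, Serpinb1a, Serpinf1, Serpind1 and Serpini1. With no filter the 53 members split into 28 higher and 25 lower, with 6 at an unadjusted p under 0.05 and 1 without overlap. In that fit 2002 of all 22180 genes had an unadjusted p under 0.05. The filter at the 60th percentile left 2 lower. Leaving out single arrays gave 10 to 12 higher, 4 to 6 lower, 1 to 6 at an unadjusted p under 0.05 and 0 to 2 without overlap. The share of all genes without overlap was not counted in these fits or in the fit with no filter. The count of members at an unadjusted p under 0.05 is given with that of all genes tested in brackets. It was 3 (1697) in the main fit. It was 1 without control replicate 3 (1109), knockout replicate 1 (987) or knockout replicate 4 (1058), and 6 without knockout replicate 3 (2170). It was 0 (617) without knockout replicates 1 and 4 together, where fewer hearts remain. With the replicate number as a block it was 5 (2177), Serpinb1a and Serpinb6b added. In that fit Serpinb1a differed by 1.40 ± 0.26 (SE), with an adjusted p of 0.146 (limma). The replicate numbers are not stated to pair hearts. Deviations of same-numbered hearts correlated at 0.36, 0.01, 0.28 and -0.03, and 2 of 4 control hearts matched their own number best.

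These are the differences whose sign turned. Without knockout replicates 1 and 4, Serpina4-ps1 was at 0.04, Serpinb1c at -0.09 and Serpinb9b at -0.14. With array weights Serpinb9 was at 0.02. Leaving out single arrays gave -0.16 to 0.09 for Serpina1e, -0.05 to 0.07 for Serpina4-ps1, -0.05 to 0.14 for Serpinb8, -0.07 to 0.05 for Serpinb9, -0.02 to 0.57 for Serpinb9b and -0.01 to 0.15 for Serping1. The cause of these turns was not tested. Other members kept their sign without knockout replicates 1 and 4. The difference grew in size for Serpina10 (from -0.15 to -0.33), Serpina1e (-0.07 to -0.25), Serpinb8 (0.07 to 0.17) and Serpinb9 (-0.01 to -0.04). It shrank for Serpina3n, Serpina11, Serpinb1a, Serpinb6a, Serpinb6b, Serpind1, Serpinf1, Serping1 and Serpini1.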
